A study of Mus musculus with 6 samples.

Results

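Conventional natural killer (NK) cells were selected from 6 single-cell RNA libraries of whole mouse liver by the transcripts in each cell barcode. A barcode was kept if it held at least 300 genes and under 25% mitochondrial transcripts. It was taken as NK if it held none of the T and B cell transcripts Cd3d, Cd3e, Cd3g and Cd79a and at least 2 of the 6 genes Ncr1, Klrb1c, Klrk1, Klre1, Gzma and Eomes. It also had to hold Eomes, the transcription factor of conventional NK cells, or to lack Cxcr6, Itga1, Tnfsf10 and Il7r, which mark liver group 1 innate lymphoid cells (ILC1), and to hold fewer than 2 of the macrophage and sinusoid genes Clec4f, Vsig4, Stab2 and Clec4g. The rule found 1217 NK barcodes among 66935 kept barcodes, of 71908 in all. Because measured transcripts chose the members, the levels of the genes in the rule are given as a description and were not tested.

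NK cells are innate lymphocytes that kill infected or transformed cells without prior sensitisation. They read a balance of activating receptors, such as NKp46 (Ncr1), NKG2D (Klrk1) and DNAM-1 (Cd226), and inhibitory receptors, such as CD94/NKG2A (Klrd1 with Klrc1) and the Ly49 family (Klra genes), and deliver perforin and granzymes to the target. In the mouse they mature from a stage high in CD27 to a stage high in CD11b (Itgam), with the transcription factors T-bet (Tbx21), ZEB2 and Blimp-1 (Prdm1) driving the later steps. The liver is rich in them and also holds resident ILC1, which share many of their genes.

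Each group had 2 libraries, made with the BD Rhapsody whole-transcriptome system, which tags each captured molecule with a unique molecular identifier (UMI). The control group has the genotype label ctrl. The pre-metastatic and macro-metastatic groups are both labelled as orthotopic colorectal cancer models in mice, that is, with tumour cells placed in the organ of origin. All 6 libraries, controls included, carry the cell line label CT26-GFP, a mouse colon carcinoma line marked with green fluorescent protein; the labels do not say how that applies to the controls, and they give no strain, age, sex or time after implantation. Livers were taken whole, digested with collagenase, freed of red blood cells and depleted of dead cells, with no sorting for NK cells. Nothing in the labels says that the 2 replicates of a group came from separate animals, so p-values here reflect the spread of these libraries alone, which may be technical.

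In the order control replicates 1 and 2, pre-metastatic 1 and 2, macro-metastatic 1 and 2, which is used for all values below, the libraries held 222, 322, 228, 250, 48 and 147 NK barcodes. The summed NK UMIs were 374193, 486595, 408956, 478922, 224115 and 508091. The median NK barcode held between 1310 and 1508 UMIs in the control and pre-metastatic libraries, and 3580 and 2678 UMIs in the macro-metastatic libraries, so depth per barcode moved with the group. Macro-metastatic replicate 1, with 48 barcodes, is the thinnest library, and results that rest on it are given without it. Any 2 libraries shared between 94 and 201 barcode sequences, but only 2 NK barcodes occurred in more than 1 library.

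The name was checked on transcripts outside the rule. Pooled over the 6 libraries, CPM (UMI counts divided by the summed UMIs of the same barcodes, on the usual CPM scale) of Prf1, the pore-forming protein of cytotoxic granules, were 1146 in NK barcodes, 304 in ILC1-like barcodes (the same gates, no Eomes and at least 1 of the 4 ILC1 genes), 76.1 in T cell barcodes and 6.28 in B cell barcodes. Itga2, the DX5 antigen of conventional NK cells, was at 191 CPM against 37.5 in ILC1-like barcodes. S1pr5, a receptor for exit from tissue, stood at 93.1 against 3.49, and the Ly49 receptor Klra3 at 287 against 34.9. The ILC1-associated genes ran the other way: Cd200r1 was at 9.67 CPM in NK and 90.8 in ILC1-like barcodes, and Inpp4b at 71.3 and 609. Other genes did not set them apart: Tbx21 was at 147 and 183 CPM, Il2rb at 2407 and 3116, Tyrobp at 605 and 677, and Gzmb at 1914 and 1810. T and B cell transcripts were low, with Trac at 34.7 CPM against 1327 in T cells and Igkc at 56.0 against 27416 in B cells. The 109 barcodes just inside the threshold, with exactly 2 of the 6 NK genes, had Prf1 at 407 and Nkg7 at 684 CPM. The 737 barcodes just outside, with exactly 1, had 6.73 and 22.9 CPM. The pool held 544 control, 478 pre-metastatic and 195 macro-metastatic NK barcodes, so the name was not checked in the macro-metastatic group alone.

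Fewer of the liver cells captured were NK cells in the macro-metastatic libraries. NK barcodes made up 2.34% and 3.10% of kept barcodes in the controls, 2.21% and 2.35% in the pre-metastatic group, and 0.398% and 1.05% in the macro-metastatic group. Both macro-metastatic libraries lay below the other 4, and the pre-metastatic values overlapped those of the controls. The 95% Wilson intervals, which cover counting error only, were 0.301% to 0.528% and 0.891% to 1.23% in the macro-metastatic libraries, and the lowest of the other 4 was 1.94% to 2.51%. The group means were 2.72% ± 0.542, 2.28% ± 0.0981 and 0.722% ± 0.458 (SD, n = 2). The macro-metastatic to control log2 ratio was -1.91 and the macro-metastatic to pre-metastatic one -1.66, each with p = 0.333 in a two-sided exact permutation test, the smallest p that 2 against 2 libraries allow. The pre-metastatic to control log2 ratio of -0.26 had an exact p of 0.667. With every barcode thinned to 1000 UMIs before selection the shares were 2.46%, 2.90%, 2.45%, 2.41%, 0.569% and 1.16%, with the macro-metastatic libraries again lowest. Leaving out macro-metastatic replicate 1 gave a log2 ratio to control of -1.38, and leaving out replicate 2 gave -2.77.

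Among lymphocytes the shares of the groups overlapped. Of all NK, ILC1-like, T and B barcodes together, NK barcodes were 6.88% and 12.3%, 8.90% and 12.1%, and 6.93% and 9.72%, and the 3 groups overlapped. Of NK and ILC1-like barcodes together, they were 73.8% and 74.5%, 62.1% and 76.9%, and 67.6% and 73.5%, also overlapping. The macro-metastatic to control log2 ratio was then -0.20 and -0.07. A share of captured barcodes depends on how many other cells were captured, so a number of NK cells per liver cannot be read from it.

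**Figure D1:**
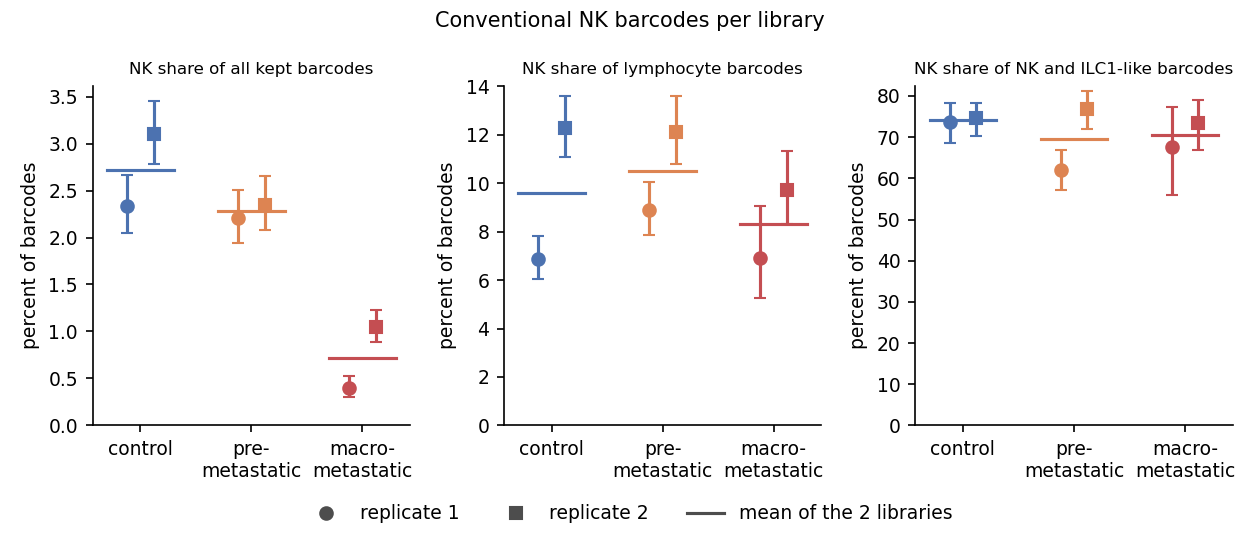
Percent of barcodes that are conventional NK, per library, of all kept barcodes (left), of lymphocyte barcodes (middle) and of NK and ILC1-like barcodes (right); points are libraries with 95% Wilson intervals and lines are means of 2 libraries. The macro-metastatic libraries (0.398% and 1.05%) lie below the others on the left and among them in the other panels.

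The genes that chose the members differed in level too, which is a description only. Ncr1 stood at 2574, 2131, 1959, 1483, 593 and 648 CPM, the macro-metastatic libraries lowest. Klrb1c (NK1.1) was at 628, 563, 443, 430, 165 and 173 CPM and Klrk1 at 609, 436, 484, 438, 156 and 249.96 CPM, in the same order of groups. Gzma, the main tryptase of cytotoxic granules, stood at 10821, 10035, 9456, 8525, 5801 and 5979 CPM. Eomes overlapped between groups, at 465, 728, 491, 520, 339 and 482 CPM. In barcodes thinned to 1000 UMIs, Ncr1 was found in 88.8%, 84.7%, 84.5%, 75.8%, 40.0% and 49.6% of NK barcodes (unthinned 93.7%, 91.3%, 92.5%, 88.0%, 77.1% and 78.9%). The share of B cell barcodes with a Ncr1 UMI, thinned likewise, was at most 0.680%. Because the rule asks for 2 of these genes, barcodes with less of them need the others or more depth to be members. More depth can also remove members, because the rule asks that other genes be absent. With barcodes thinned to 1000 UMIs before selection, and shallower ones left out, the libraries held 211, 273, 227, 225, 63 and 146 NK barcodes. Macro-metastatic replicate 1 thus had 63 thinned against 48 at full depth.

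Transcripts of other liver cells inside the NK barcodes also moved with the group, and their part in the results that follow was not tested unless a value is given. Summed over 14 neutrophil markers, the lowest and highest library were 16.0 and 18.5 CPM in controls, 223 and 592 in the pre-metastatic group, and 1294 and 1706 in the macro-metastatic group. At least 1 neutrophil marker UMI was present in 6, 6, 56, 26, 45 and 111 NK barcodes. Monocyte and macrophage markers ran from 625 to 673, 1494 to 2245, and 1576 to 3614 CPM, and dendritic cell markers from 754 to 1005, 1514 to 2593, and 2856 to 4497 CPM. At least 1 UMI of the 4 MHC class II genes among the latter was present in 27, 28, 57, 73, 37 and 112 NK barcodes. That is most of the NK barcodes in both macro-metastatic libraries. The top 3 barcodes of a library held between 54.1% and 90.4% of the UMIs of these 4 genes. Hepatocyte markers were at 1221 to 2330, 1092 to 2939, and 669 to 679 CPM. Acute-phase transcripts, which hepatocytes secrete in inflammation, were at 61.7 to 120, 775 to 2792, and 222 to 317 CPM. T cell markers were at 1009 to 1149, 821 to 853, and 1071 to 1116 CPM, lowest in the pre-metastatic group and overlapping between the other two. B cell markers were at 115 to 121, 100 to 180, and 134 to 138 CPM. ILC1-associated genes were at 898 to 1133, 946 to 1061, and 1470 to 2298 CPM, highest in both macro-metastatic libraries. Colon carcinoma and epithelial markers stayed at 10.7 CPM or less, with Krt19, Krt20, Cdx1, Cdx2, Tff3 and Cldn4 at 0. Between 7 and 25 NK barcodes per library held 2 or more of 20 genes of other lineages. Leaving out every NK barcode with even 1 such UMI kept 177, 253, 166, 188, 20 and 73 barcodes, and values from these are given below as values without other-lineage transcripts. That name covers the 20 genes only. S100a8, S100a9, Lyz2, C1qb, Alb, Saa1 and the MHC class II genes are not among them, so such transcripts can remain. Against control, S100a8, S100a9, Lyz2 and C1qb were called higher in the macro-metastatic group in every alternative, this one included. In the macro-metastatic comparison with control, 8 of 8 neutrophil markers tested and 8 of 10 monocyte and macrophage markers rose.

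**Figure D2:**
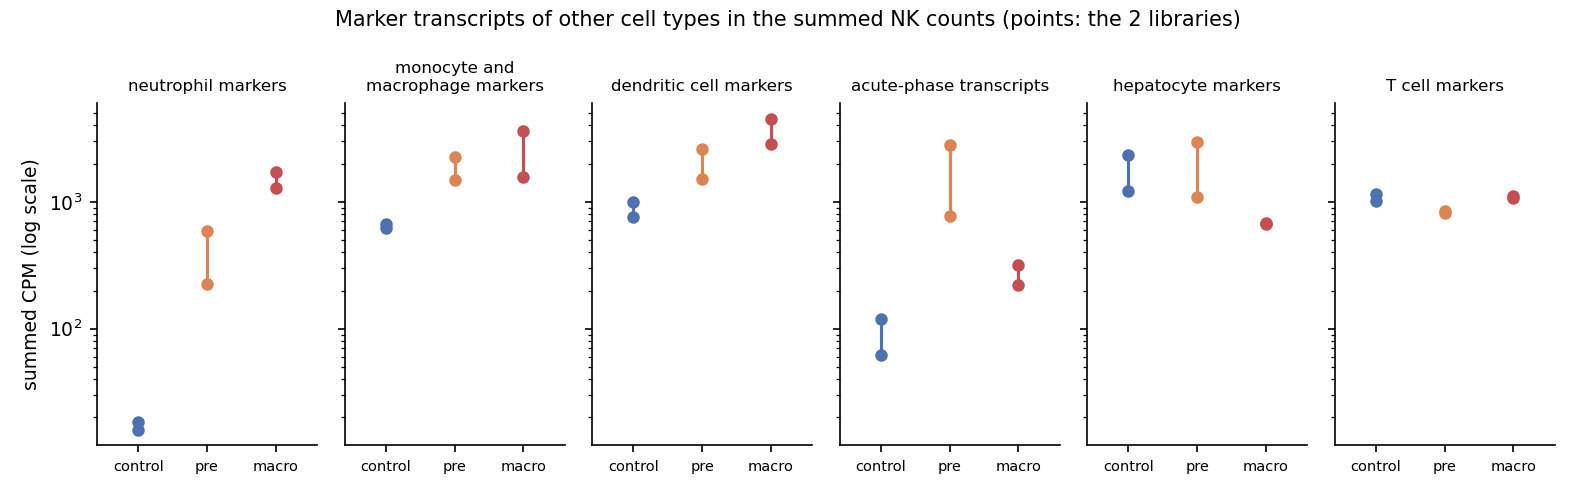
Summed CPM (log scale) of marker lists of other cell types in the NK sums; the joined points are the 2 libraries of a group. Neutrophil markers lie at 16.0 and 18.5 CPM in controls and at 1294 and 1706 CPM in the macro-metastatic libraries, and T cell markers between 821 and 1149 CPM throughout.

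NK gene expression in the macro-metastatic group differed broadly from control. Of 6626 genes tested outside the rule, 845 passed an adjusted p of 0.05 in edgeR's quasi-likelihood test on the counts summed per library (12.8%), 628 higher (9.48%) and 217 lower (3.27%). With offsets for the GC content of the transcripts the count was 796, of which 514 were higher and 282 lower. The calls in every edgeR alternative numbered 165, 140 higher and 25 lower. The count was 436 without control replicate 2, 483 without control replicate 1 and 561 without macro-metastatic replicate 1. Counts of called genes in the lists below, for this comparison, are to be read against the shares of 12.8%, 9.48% higher and 3.27% lower. Gene levels below are CPM after TMM scaling, which adjusts for composition between libraries, and the changes are log2 fold changes with standard error (SE).

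Several genes listed for the early, CD27-high stage of NK maturation were higher and several for the late, CD11b-high stage lower. The stage markers Cd27, Itgam and Klrg1 themselves were not called. Of 11 early genes tested, 6 rose and 0 fell (median log2 fold change 1.10, against -0.01 over all genes tested). The 6 were Thy1, Cd7, Cd69, Xcl1, Kit (2.23) and Itgb3 (1.82). Kit and Itgb3 were not called in every alternative, and Cd69 is also in the activation list. Without other-lineage transcripts 6 of 10 rose, and in thinned barcodes 4 of 8. The count was 1 without control replicate 2, 3 without macro-metastatic replicate 1 and 4 without control replicate 1. Of 16 late genes tested, 7 fell and 3 rose (median -0.41). Without control replicate 2 and without macro-metastatic replicate 1 the lower calls numbered 3 each. Without control replicate 1 they numbered 4, with 1 higher.

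Among the early genes, Thy1 encodes the surface glycoprotein Thy-1, carried by immature and by activated NK cells. It stood at 106, 67.5, 53.5, 77.6, 403 and 308 CPM. Both macro-metastatic libraries were above all 4 others, which overlapped. The change was 2.03 (SE 0.28, edgeR adjusted p = 0.000139), and 1.87 without other-lineage transcripts; in barcodes thinned to 1000 UMIs it was 1.30 (edgeR adjusted p = 0.041). Of the 222 macro-metastatic Thy1 UMIs, 116 were in the 21 barcodes with granzymes C to F described further on, and the other 174 barcodes were at 176 CPM, unscaled. Cd7, a surface marker of early lymphoid cells, was at 161, 160, 110, 63.0, 398 and 345 CPM, again highest in both macro-metastatic libraries. Its change was 1.20 (SE 0.25, edgeR adjusted p = 0.00392), but 1.18 with an edgeR adjusted p of 0.0537 without control replicate 2. Xcl1, a chemokine that draws dendritic cells, was at 428, 229, 270, 250, 837 and 580 CPM. Its rise of 1.10 (edgeR adjusted p = 0.0114) was 0.69 without control replicate 2 and 0.83 without macro-metastatic replicate 1, and passed in neither. Xcl1 is also in the list of ILC1-associated genes and stood at 1522 CPM in ILC1-like barcodes against 376 in NK barcodes, pooled over libraries. Of 8 ILC1-associated genes tested, 2 rose, Xcl1 and Gzmc, and 0 fell (median 0.97); the part of ILC1 transcripts in the early genes was not tested. Cd27 itself had a log2 fold change of 0.12 (edgeR adjusted p = 0.870).

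Among the late genes, Zeb2 was at 442, 512, 496.5, 426, 225 and 218 CPM. The macro-metastatic libraries were the lowest and close to each other, and the change was -1.11 (SE 0.21, edgeR adjusted p = 0.00203). Prdm1 stood at 305, 299, 329, 214, 128 and 129 CPM, with the same order. It changed by -1.23 (SE 0.26, edgeR adjusted p = 0.00417), and by -1.02 with an edgeR adjusted p of 0.0501 without other-lineage transcripts. Ly6c2, a GPI-anchored antigen of mature NK cells and of monocytes, was at 769, 583, 484, 401, 123 and 252 CPM. Its change was -1.76 (SE 0.27, edgeR adjusted p = 0.000381), and -2.47 without macro-metastatic replicate 2. Spn (CD43) was at 499, 503, 521, 495, 209 and 304 CPM and changed by -0.93 (edgeR adjusted p = 0.00847), a call lost without control replicate 2 and without macro-metastatic replicate 1. Cx3cr1, S1pr5 and Cma1 also fell in the fit of all libraries, by 1.49, 1.24 and 0.99 on the log2 scale, and lost the call in 13, 12 and 10 of the alternatives, among them each control library left out and macro-metastatic replicate 1 left out, with -1.51, -0.92 and -0.68 in the last.

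The late list did not move as a block. Irf8, a transcription factor of NK cells and of myeloid cells, rose from 864 and 978 CPM in controls, through 1163 and 1129, to 1649 and 1692 CPM (log2 fold change 0.86, SE 0.16, edgeR adjusted p = 0.0023). Without other-lineage transcripts its change was 1.19. Lgals1 also rose, by 0.98, and was not called in every alternative. Tbx21 had a change of 1.09 (edgeR adjusted p = 0.0144) and did not pass without control replicate 1, without control replicate 2 or without macro-metastatic replicate 2, where it was 0.68. Itgam and Klrg1, the surface markers most used for this stage, gave 0.06 and 0.01 with edgeR adjusted p of 0.880 and 0.984, and the sign of both turned under several alternatives, such as -0.44 for Itgam without other-lineage transcripts and -0.18 for Klrg1 without control replicate 2.

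**Figure D3:**
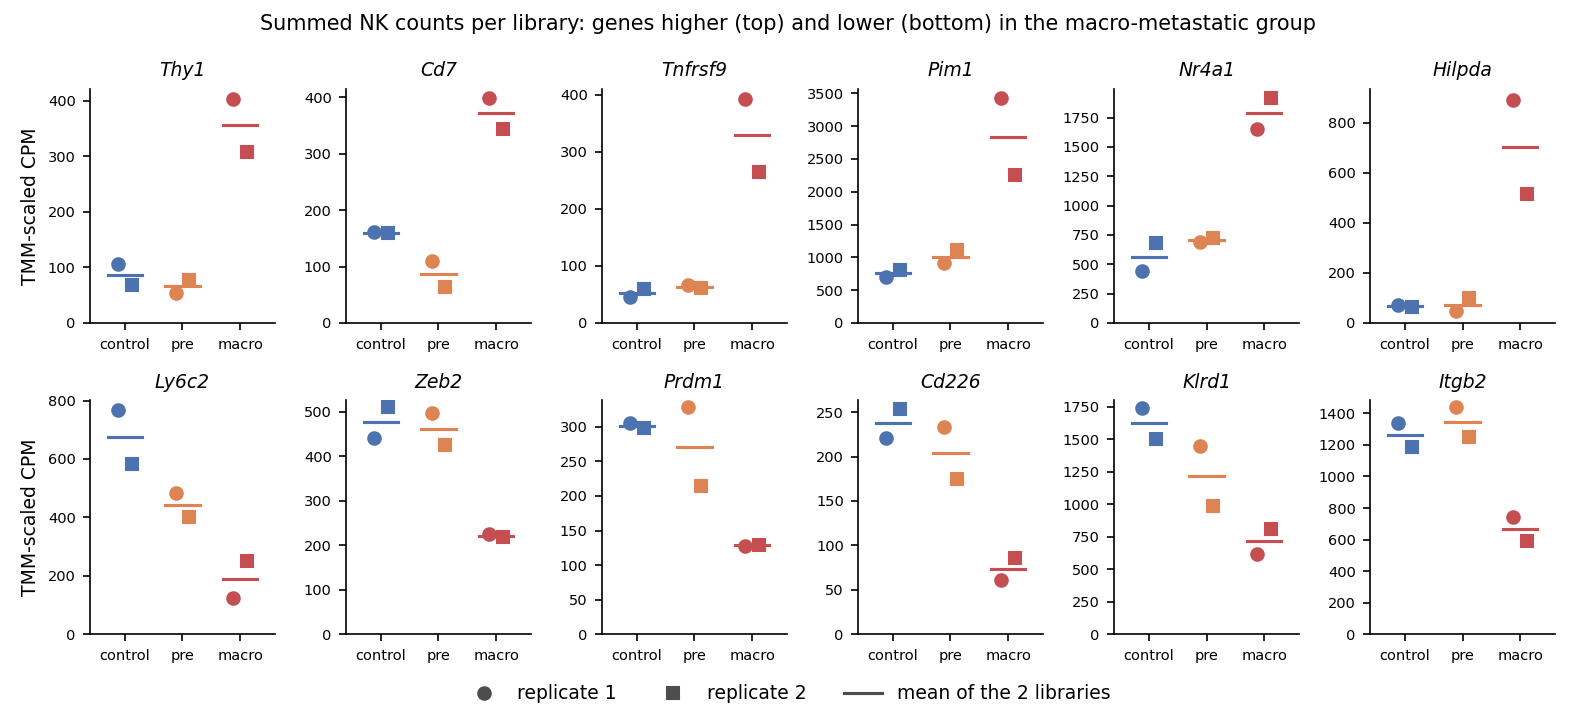
TMM-scaled CPM of 12 genes in the summed NK counts of each library; points are the 2 libraries of a group and lines their means. Genes in the top row are highest in both macro-metastatic libraries (Thy1 403 and 308 CPM) and genes in the bottom row lowest (Zeb2 225 and 218 CPM).

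Receptors and adhesion molecules through which NK cells engage targets moved in both directions. Of 26 activating receptors and adaptors, 6 rose and 4 fell (median -0.12), and of 14 inhibitory receptors and checkpoints 3 rose and 2 fell (median 0.18). Without control replicate 2 the activating counts were 3 and 3, and without control replicate 1 they were 6 and 1, and without macro-metastatic replicate 2 they were 5 and 1. Among the inhibitory genes 1 was called higher without macro-metastatic replicate 1, and 1 lower without control replicate 1. Cd226, whose protein DNAM-1 binds ligands that many tumour cells carry, was at 221, 254, 234, 174, 61.3 and 86.2 CPM. Both macro-metastatic libraries were below the rest, and the change was -1.62 (SE 0.27, edgeR adjusted p = 0.000824). Klrd1, the CD94 chain, was at 1742, 1498, 1446, 988, 618 and 808 CPM. It was lowest in both macro-metastatic libraries, with a change of -1.17 (SE 0.21, edgeR adjusted p = 0.00131), and -0.84 without other-lineage transcripts. Its partner Klrc1, the NKG2A chain, was at 537, 422, 367, 348, 245 and 241 CPM and changed by -0.98 (edgeR adjusted p = 0.00574), but not past the threshold without control replicate 1.

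Itgb2, the shared beta-2 chain of LFA-1 and Mac-1, which holds an NK cell to its target, stood at 1341, 1187, 1441, 1253, 740.2 and 590.5 CPM. Both macro-metastatic libraries were below the other 4, and the change was -0.94 (SE 0.18, edgeR adjusted p = 0.00266). Itga2 was at 243, 284, 195, 222, 40.8 and 109.9 CPM. It changed by -1.64 (SE 0.31, edgeR adjusted p = 0.00194), by -2.70 without macro-metastatic replicate 2, and by -0.91 with an edgeR adjusted p of 0.102 without other-lineage transcripts. In the trafficking and adhesion list of 21 genes 5 rose and 6 fell, with 0 and 2 left without control replicate 2, 2 and 3 without macro-metastatic replicate 1, and 2 and 4 without control replicate 1. Of the Ly49 family, whose near-identical members the counting could split, 3 genes passed the low-count filter and 1, Klra3, was called lower (-0.90, edgeR adjusted p = 0.0373). That call was lost without either control library or macro-metastatic replicate 1 (-0.55), and its value was -1.64 without macro-metastatic replicate 2. Any Ly49 transcript was present in 34.7%, 38.4%, 35.0%, 28.5%, 26.7% and 30.5% of thinned NK barcodes.

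On the side of receptors that appear on activation, Tnfrsf9, the co-stimulatory receptor 4-1BB, was at 46.3, 59.3, 65.7, 60.9, 393 and 265 CPM. The macro-metastatic libraries stood far above the other 4, and the change was 2.58 (SE 0.29, edgeR adjusted p = 1.99e-05). Sh2d2a, a T cell and NK adaptor, was at 101, 141, 131, 128, 408 and 427 CPM, a change of 1.77 (edgeR adjusted p = 8.32e-05). The checkpoint receptor Havcr2 (TIM-3) had 1 UMI in controls and 29 in the macro-metastatic libraries, a ratio of 34.1 with an exact counting interval of 5.65 to 1392. Its fitted change was 4.89, and 7.06 without control replicate 2, which held the 1 UMI. Of the 29 UMIs, 10 lay in 6 of the 21 barcodes with granzymes C to F described further on. The other 19 lay in 7 of the remaining 174 barcodes. Havcr2 was not called in every alternative. Ctla4, better known in T cells, changed by 3.22 (edgeR adjusted p = 0.00294) and by 2.33 with an edgeR adjusted p of 0.0524 without macro-metastatic replicate 1, and by 3.95 without replicate 2.

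Most genes of the activation list rose. Of 20 activation and NR4A response genes, 13 rose and 1 fell, against 12.8% of all genes called (median 1.38), and without other-lineage transcripts 13 of 17 rose. The lowest count on leaving out a library was 9, without control replicate 2. Nr4a1, an orphan nuclear receptor induced by receptor signalling, was at 444, 683, 689, 728, 1654 and 1920 CPM. Both macro-metastatic libraries exceeded the rest, and the change was 1.66 (SE 0.20, edgeR adjusted p = 4.95e-05). Its relatives Nr4a2 and Nr4a3 rose by 1.21 and 2.10. Pim1, a survival kinase downstream of cytokine receptors, was at 698, 812, 908, 1108, 3430 and 2250 CPM, a change of 1.90 (SE 0.21, edgeR adjusted p = 1.81e-05). Nfkbia and Nfkbid, inhibitors that NF-kappaB itself induces, rose by 1.54 and 2.00, and Crem, a cAMP-responsive repressor, by 1.25. The member that fell was Dusp2, a MAP kinase phosphatase, at -1.05 (edgeR adjusted p = 0.00919), a call lost without control replicate 1 and without macro-metastatic replicate 2. Nr4a1 and Nfkbia also passed in thinned barcodes, with 1.68 and 1.39.

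Cd69, an early activation antigen that also retains lymphocytes in tissue, was at 177, 147, 183, 118, 699 and 265 CPM. Macro-metastatic replicate 1 was far above replicate 2, though both exceeded the other libraries. The change of 1.51 (SE 0.36, edgeR adjusted p = 0.0101) was 0.71 with an edgeR adjusted p of 0.163 without macro-metastatic replicate 1, 2.10 without replicate 2, and 1.37 (edgeR adjusted p of 0.105) without control replicate 2.

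Hypoxia and glycolysis genes rose as well: 11 of 20 were higher and 1 lower (median 1.29), and without other-lineage transcripts 8 of 18 were higher. The count of higher genes was 7 without control replicate 2. Gapdh, the glyceraldehyde phosphate dehydrogenase of glycolysis, was at 104, 115, 68.1, 83.9, 867.8 and 711 CPM. The 2 macro-metastatic libraries stood apart from all others, with a change of 2.84 (SE 0.23, edgeR adjusted p = 1.35e-06). Hilpda, which low oxygen induces and which coats lipid droplets, was at 73.6, 63.4, 48.7, 98.6, 893 and 515 CPM (3.34, SE 0.33, edgeR adjusted p = 8.36e-06). Vegfa, the angiogenic growth factor, was at 32.7, 22.5, 34.1, 42.0, 306 and 239 CPM (3.29, SE 0.32, edgeR adjusted p = 6.65e-06). Without other-lineage transcripts the changes of Gapdh, Hilpda and Vegfa were 2.41, 2.95 and 2.88. Aldoa and Pkm, further glycolytic enzymes, rose by 1.88 and 2.58. The member that fell was P4ha1, a prolyl hydroxylase of collagen (-1.21, edgeR adjusted p = 0.0142), a call lost without control replicate 1 (-1.13) and without macro-metastatic replicate 2 (-0.80).

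Of 13 genes of the TGF-beta response and tissue residency, 4 rose and 0 fell (median 0.78), and the count was 3 or 4 on leaving out any library. TGF-beta holds back NK cells and can turn them towards an ILC1-like state. The transcriptional co-repressors of SMAD signalling Skil and Tgif1 were at 128, 125, 151, 189, 419 and 334 CPM and at 185, 143, 178, 317, 669 and 465.5 CPM. Both were highest in the macro-metastatic libraries, and they rose by 1.55 and 1.77 (edgeR adjusted p = 0.000317 and 0.000514). Rgs1, a regulator of G protein signalling found in resident lymphocytes, was at 774, 548, 825, 604, 2471 and 1435 CPM (1.55, edgeR adjusted p = 0.000579). The 4th was Rgs2 (0.78), whose call was lost without control replicate 2.

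Of 18 genes that respond to prostaglandin, adenosine or glucocorticoid, 4 rose and 0 fell, and the metal-binding metallothioneins were 2 of them. Mt1 was at 5.45, 10.2, 48.7, 21.0, 291 and 399 CPM, a change of 5.38 (SE 0.43, edgeR adjusted p = 1.35e-06). Mt2 had 0 UMIs in controls and 173 in the macro-metastatic libraries, at least 67.8-fold higher against a floor of 3 counts over the control group. Cdkn1a, the cell cycle inhibitor p21, rose by 3.04. Among 22 immediate-early and heat-shock genes 6 rose and 0 fell. Fosb, an AP-1 component, was at 49.1, 102, 114, 122, 832 and 735 CPM (3.32, edgeR adjusted p = 1.71e-06, and 3.96 without control replicate 2). Hspa8, a constitutive chaperone, was at 256, 254, 214, 206, 1332 and 944 CPM (2.14, edgeR adjusted p = 8.36e-06).

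Of the core killing machinery, Prf1, Gzmb and Nkg7 did not pass the threshold in the fit without GC offsets. Prf1 was at 1235, 1217, 1351, 1232, 766 and 1086 CPM, lower in both macro-metastatic libraries, with a change of -0.39 (SE 0.19, edgeR adjusted p = 0.199). With GC offsets it was -0.70 and called lower (edgeR adjusted p = 0.0217), and it ran from -0.18 without macro-metastatic replicate 1 to -0.70 without replicate 2, called in neither. Gzmb was at 2091, 1891, 2266, 1951, 2067 and 1705 CPM, where the groups overlapped (-0.08, edgeR adjusted p = 0.797). Nkg7, a granule membrane protein, changed by -0.25 (edgeR adjusted p = 0.381). Of 20 cytotoxic granule genes, 4 rose and 0 fell (median 0.17): Gzmc, Srgn, Lamp1 and Lamp2. Srgn, the proteoglycan on which granzymes are packed, was at 1210, 1144, 1331, 1582, 3241 and 2522 CPM (1.29, edgeR adjusted p = 0.000123). The lysosomal proteins Lamp1 and Lamp2 rose by 1.24 and 1.21 and lost their calls without other-lineage transcripts (0.57 and 0.08), without either control library and without macro-metastatic replicate 1 (0.78 for each). Without control replicate 1 and without macro-metastatic replicate 1 the higher calls numbered 2.

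A cluster of granzymes next to Gzmb on chromosome 14 had no transcripts in control NK cells and many in the macro-metastatic ones. Gzmc, Gzmd, Gzme and Gzmf encode serine proteases related to granzyme B that lymphocytes make after strong or prolonged stimulation. In mm10 they lie on the minus strand, with Gzme at chr14:56117626-56120625, Gzmd at chr14:56129556-56132608, Gzmf at chr14:56205263-56211417 and Gzmc at chr14:56231441-56234656, ahead of Gzmb at chr14:56258838-56262260. None had a UMI in the 544 control NK barcodes, and the pre-metastatic libraries held 2 UMIs, both of Gzmc. The macro-metastatic libraries held 330 UMIs of Gzmd, 191 of Gzmc, 149 of Gzmf and 75 of Gzme. Against a floor of 3 counts over the control group these were at least 129-fold, 74.8-fold, 58.4-fold and 29.4-fold higher. In macro-metastatic replicates 1 and 2, Gzmd was at 1021 and 280 CPM, Gzmc at 470 and 213, Gzmf at 362 and 168, and Gzme at 143 and 101 CPM. All 4 were called by edgeR, and DESeq2 did not call Gzmd (adjusted p = 0.219) or Gzmf (adjusted p = 0.337). The genes are near-identical in places, so the split of counts among them is uncertain.

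The 100 bases ahead of each RefSeq start are shown because the genes that rose share most of them, and Gzmb does not. They are on GRCm38.p6, minus strand, written 5' to 3', with an 8-base stretch in capitals that was chosen after the sequences were seen. The gene coordinates above are from GENCODE, whose starts differ. The Gzmb window stops at 56262335, short of the GENCODE start at 56262260, and the bases between were neither shown nor compared. The Gzmd and Gzmf windows reach into the gene coordinates given above.
Gzmc (chr14:56234658-56234757): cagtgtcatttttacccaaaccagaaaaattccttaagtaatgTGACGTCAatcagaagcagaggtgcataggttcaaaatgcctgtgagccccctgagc
Gzmd (chr14:56132594-56132693): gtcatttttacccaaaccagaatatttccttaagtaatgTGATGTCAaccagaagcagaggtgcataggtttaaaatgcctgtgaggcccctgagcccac
Gzme (chr14:56120626-56120725): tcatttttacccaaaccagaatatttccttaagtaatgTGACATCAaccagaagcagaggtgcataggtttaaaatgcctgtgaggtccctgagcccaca
Gzmf (chr14:56211408-56211507): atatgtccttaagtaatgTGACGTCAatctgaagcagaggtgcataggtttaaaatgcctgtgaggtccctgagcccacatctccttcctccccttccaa
Gzmg (chr14:56159580-56159679): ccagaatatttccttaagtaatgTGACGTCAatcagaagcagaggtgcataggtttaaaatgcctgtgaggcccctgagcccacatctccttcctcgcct
Gzmb (chr14:56262335-56262434): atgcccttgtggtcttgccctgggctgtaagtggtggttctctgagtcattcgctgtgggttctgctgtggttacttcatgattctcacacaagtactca
The capitals mark TGACGTCA, the palindromic cAMP response element, or the 8 bases aligned with it. The element begins 57 bases before the start in Gzmc, 82 in Gzmf and 77 in Gzmg. In Gzmd the aligned bases differ by C4T and in Gzme by G5A, positions counted from 1 at the 5' end of the element. The 250 bases ahead of the RefSeq start of Gzmb do not hold these letters. Of 32851 start windows of 250 bases, 508 hold the element on either strand (1.55%). The 100 bases were compared aligned with each other, not set start to start. Gzmd and Gzme were 96% identical, Gzmf and Gzmg 91%, and Gzmc and Gzmd 90%. The least alike of granzymes C to F were Gzmc and Gzmf (70%), and Gzmb was between 42% and 55% identical to granzymes C to F. The windows of Gzmc and Gzmf are offset, with the element 57 and 82 bases before the start, so they overlap only in part. These matches are a description of the sequence only.

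The granzyme transcripts came from few barcodes. At least 1 UMI of granzymes C to F was present in 11 of 48 NK barcodes of macro-metastatic replicate 1 (22.9%) and 10 of 147 of replicate 2 (6.80%). The top 3 barcodes held 91.0% of 391 UMIs and 90.7% of 354 UMIs, with up to 152 and 233 in a single barcode. Of the 21 barcodes, 8 held at least 10 UMIs. Several of the 8 were among the deepest, with totals up to 15203 UMIs, and 2 of the 8 held no transcript of the 20 other-lineage genes. Without other-lineage transcripts none of the 4 genes passed the low-count filter, so they could not be tested in those barcodes. B cell barcodes of the macro-metastatic libraries held 2 UMIs of the 4 genes in all. The same genes were present in macro-metastatic T cell sums at 41.1 (Gzmc), 61.8 (Gzmd), 23.3 (Gzme) and 74.1 CPM (Gzmf), against 261, 451, 102 and 203 pooled CPM in NK, and Gzmd was at 0 UMIs in ILC1-like barcodes. They were not confined to NK and T cells. All macro-metastatic kept barcodes outside NK, T cells included, held 661 (Gzmc), 1105 (Gzmd), 235 (Gzme) and 1104 UMIs (Gzmf). T cell barcodes held 207, 311, 117 and 373 of these. Which cells held the remainder was not tested.

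The 21 barcodes with these granzymes can be described beside the other 174 macro-metastatic NK barcodes, with no test since they were chosen by the measured genes. Spp1 (osteopontin) was at 2152 against 82.9 pooled CPM, Thy1 at 898 against 176 and Tnfrsf9 at 658 against 191. Gzmb was at 2546 against 1438 and Prf1 at 1068 against 856, while Itga2 was at 7.74 against 96.2 and Eomes at 372 against 453. Gapdh was at 697 against 680. Over all NK barcodes Spp1 had 3, 0, 1, 5, 195 and 133 UMIs, with the macro-metastatic libraries at 995 and 287 CPM, both above all others and replicate 1 well above replicate 2. The 328 macro-metastatic UMIs gave a ratio of 129 (exact interval 43.6 to 626, counting error only), and the fitted change of 7.32 was 6.23 without macro-metastatic replicate 1, 10.94 without control replicate 1, which held all 3 control UMIs, and 6.16 without control replicate 2. Macrophages and bile duct cells also make it, and without other-lineage transcripts it did not pass the low-count filter.

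**Figure D4:**
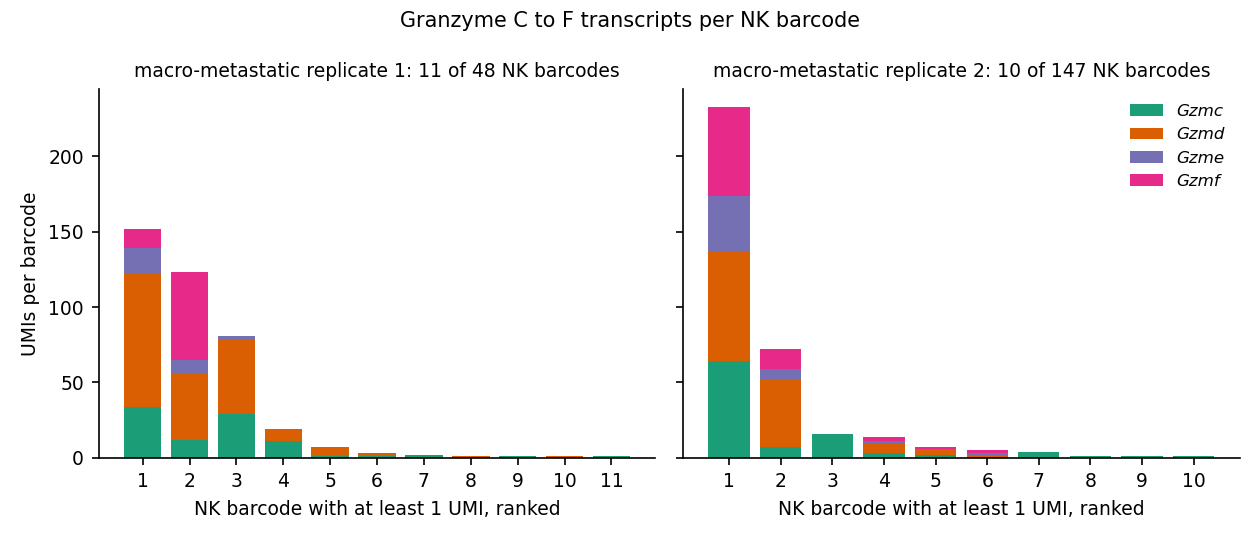
UMIs of Gzmc, Gzmd, Gzme and Gzmf (stacked bars) in each macro-metastatic NK barcode with at least 1, ranked, for replicate 1 (left) and replicate 2 (right). The top 3 barcodes hold 91.0% and 90.7% of the UMIs.

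Other gene groups changed in part, against 12.8% of all genes called. Of 30 NK transcription factors, 5 rose and 6 fell (median -0.28); with GC offsets the counts were 2 and 8, without control replicate 1 they were 1 and 5, without control replicate 2 they were 3 and 3, and without macro-metastatic replicates 1 and 2 they were 2 and 3, and 3 and 5. Beyond Zeb2, Prdm1 and Irf8, Ikzf1, a lymphoid transcription factor, changed by -0.86 (edgeR adjusted p = 0.00574), and by -0.58 with an edgeR adjusted p of 0.111 in thinned barcodes. Of 17 cytokine receptor genes, 2 rose and 1 fell, which is near that share of all genes. Il4ra, a chain of the receptors for interleukins 4 and 13, was at 13.6, 18.4, 19.5, 18.9, 138 and 121 CPM (2.94, edgeR adjusted p = 6.02e-05), and 3.08 without other-lineage transcripts. Csf2rb, the shared chain of the GM-CSF and interleukin 3 receptors, was at 24.5, 4.09, 43.8, 58.8, 219.5 and 179 CPM (3.88, edgeR adjusted p = 2.79e-05; 5.45 without control replicate 1 and 2.96 without control replicate 2). Myeloid cells carry both, and without other-lineage transcripts Csf2rb did not pass the low-count filter. Il10rb, a chain of the interleukin 10 receptor, changed by -1.26 (edgeR adjusted p = 0.00722), and by -1.32 with an edgeR adjusted p of 0.0589 without macro-metastatic replicate 2.

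Of 17 survival and apoptosis regulators, 6 rose and 1 fell, with 2 higher without control replicate 2, 3 without control replicate 1 and 3 without macro-metastatic replicate 1. Birc3, an inhibitor of apoptosis that NF-kappaB induces, rose by 1.38 (edgeR adjusted p = 0.000676). Of 19 cell cycle genes, 3 rose (Mki67, Top2a and Tubb5, median 0.94), with 8 without macro-metastatic replicate 2, and none was called without control replicate 2, without macro-metastatic replicate 1, in thinned barcodes or without other-lineage transcripts. Of 28 oxidative phosphorylation genes, 5 rose and 1 fell, with 1 higher without either control library and 2 without either macro-metastatic library. Type I interferon-stimulated genes stayed near the background, with 1 higher and 1 lower of 16 (median -0.01), as did MHC class I presentation genes with 2 higher of 18. The cell cycle count of 3 of 19 was also near the background of 12.8% of all genes called. Among genes that fell, Denn2b, a regulator of Rab proteins, changed by -2.59, and Atp8b2, a phospholipid flippase, by -1.92, and both passed in every alternative.

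Few genes were called between pre-metastatic and control NK cells, and transcripts of other cells were among them. With 2 libraries per group, few calls do not show that the cells were alike. Of 6626 genes, 52 were called by edgeR (0.785%), 49 higher (0.74%) and 3 lower (0.0453%), 0 of them in every alternative, and 3 were called without other-lineage transcripts. The count was 10 without control replicate 2, 19 without control replicate 1 and 121 without pre-metastatic replicate 1. In all but 1 of the lists for NK biology 0 genes passed, the exception being Mt2 with 0 UMIs in controls and 33 in the pre-metastatic libraries (at least 10.7-fold higher), a call lost without control replicate 2 (edgeR adjusted p = 0.0612). By contrast 6 of 8 neutrophil markers, 6 of 9 acute-phase transcripts and 3 of 10 monocyte and macrophage markers rose. Saa1, the acute-phase serum amyloid of hepatocytes, was at 0, 0, 903, 86.0, 25.5 and 23.7 CPM, mostly in pre-metastatic replicate 1. Its 412 pre-metastatic UMIs were at least 133-fold above the floor of 3 counts over the control group, and the call was lost without control replicate 2 (edgeR adjusted p = 0.0698). S100a9, a subunit of the neutrophil alarmin calprotectin, was at 0, 2.05, 122, 50.4, 567 and 719.8 CPM, a rising order of groups. Lyz2, lysozyme of myeloid cells, rose by 3.27 (edgeR adjusted p = 0.00377), but its change was -0.000747 without other-lineage transcripts and it did not pass without control replicate 2 (edgeR adjusted p = 0.0588).

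The lymphocyte gene among the 3 lower calls was Cd52, a small GPI-anchored surface antigen. It was at 739, 845, 260, 407, 1669 and 1274 CPM. The pre-metastatic libraries were lowest and the macro-metastatic ones highest, with no overlap. The pre-metastatic change was -1.24 (SE 0.22, edgeR adjusted p = 0.0121), a call lost in 6 alternatives. The other 2 were Ghr, the growth hormone receptor of hepatocytes, with 51 UMIs in controls and 2 in the pre-metastatic libraries, and the interferon-induced chemokine Cxcl9, with 54 and 2. Without control replicate 2 neither Ghr (edgeR adjusted p = 0.0698) nor Cxcl9 (edgeR adjusted p = 0.520) nor Cd52 (edgeR adjusted p = 0.148) passed. Genes that stood out in the macro-metastatic group gave these values here: Thy1 -0.37, Zeb2 -0.05, Gapdh -0.52 and Klrd1 -0.41, each with an edgeR adjusted p of 0.766 or more.

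The comparison of macro-metastatic with pre-metastatic NK cells shares its macro-metastatic libraries with that against control. Here the macro-metastatic NK cells gave 597 calls of 6626 (9.01%), 454 higher (6.85%) and 143 lower (2.16%), and 142 calls in every edgeR alternative. The count was 304 without macro-metastatic replicate 1 and 355 without pre-metastatic replicate 1. Side by side with the changes against control, Thy1 was 2.40 against the pre-metastatic group and 2.03 against control, Tnfrsf9 2.34 and 2.58, Zeb2 -1.06 and -1.11, and Itgb2 -1.03 and -0.94. Cd7 was 2.11 and 1.20, with an edgeR adjusted p of 9.18e-05 for the first. Txnip, a thioredoxin-binding protein that responds to glucose, changed by -2.16 and Crip1, a small LIM protein, by 4.28 against the pre-metastatic group, both called in every alternative (edgeR adjusted p = 7.25e-05 and 1.32e-06), with Crip1 at 4.90 without pre-metastatic replicate 2.

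Whether these changes differed from those of other lymphocytes was tested in the same libraries, with an interaction term between cell type and group. Against T cells, 117 of 9660 genes differed in their macro-metastatic change (1.21%), 44 higher (0.455%) and 73 lower (0.756%) in NK; the count was 55 without control replicate 1, 69 without control replicate 2 236 and 211 without pre-metastatic replicates 1 and 2, and 185 without macro-metastatic replicate 2. Against B cells, 70 of 8047 differed (0.87%), 45 higher (0.559%) and 25 lower (0.311%); the count was 12 without control replicate 1, 26 without macro-metastatic replicate 1, 28 without control replicate 2, and 117 and 123 without pre-metastatic replicates 1 and 2. For the pre-metastatic change 0 genes differed from T cells by edgeR (0%), with 393 at an unadjusted p under 0.05, and 4 from B cells (0.0497%), 2 higher and 2 lower in NK (0.0249% each). On leaving out a library these counts ran from 0 to 37, highest without pre-metastatic replicate 1, and from 0 to 16, lowest without either control library and highest without pre-metastatic replicate 1. Neutrophil marker sums were unequal between the cell types, and their part in these differences was not tested. In T cell sums they ran from 77.3 to 268 CPM in controls and from 7193 to 20246 in the macro-metastatic group, far above the NK sums. In B cell sums they ran from 34.1 to 63.6 and from 1380 to 1908 CPM, near the NK level. Monocyte and macrophage markers in B cell sums ran from 116 to 161 CPM in controls and from 1070 to 1896 in the macro-metastatic group. The part of these was not tested either.

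Among genes with a higher change in NK were Cd69 and Thy1. Cd69 changed by 1.51 in NK and by -0.75 in T cells, an interaction of 2.07 (SE 0.36, edgeR adjusted p = 0.00586), and by -0.64 in B cells (2.06, SE 0.30, edgeR adjusted p = 0.00221, and 0.0539 without control replicate 1). Thy1 changed by 2.03 in NK and -0.03 in T cells, which carry it at all times (1.97, SE 0.24, edgeR adjusted p = 0.000196). As given above, 116 of the 222 macro-metastatic NK UMIs of Thy1 lay in 21 barcodes. Fosb changed by 3.32 and 1.82 (1.48, edgeR adjusted p = 0.00202). These 3 differences from T cells passed in every alternative. Gpr183, a receptor that positions lymphocytes, changed by 1.54 in NK, -0.17 in T and -0.60 in B cells, with interactions of 1.59 and 2.11. Both lost their calls without control replicate 1, without control replicate 2 and without macro-metastatic replicate 1 (1.16 against T and 1.83 against B cells).

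On the lower side were Zeb2, at -1.11 in NK and 2.41 in T cells (-3.53, SE 0.27, edgeR adjusted p = 1.71e-06), and Klrc1, at -0.98 and 1.12 (-2.18, SE 0.27, edgeR adjusted p = 0.000276). Klrd1 was at -1.17 and 0.42 (-1.74, edgeR adjusted p = 0.0023), and Prf1 at -0.39 and 1.47 (-1.94, edgeR adjusted p = 0.000369). Itgam was at 0.06 and 4.16, and neutrophils and monocytes carry both Itgam and Zeb2; their part in the T cell values was not tested. Against B cells Zeb2 again differed (-1.92, edgeR adjusted p = 0.00321), but not without control replicate 1. Neutrophil markers in B cell sums were near the NK level, while monocyte and macrophage markers rose there as well. Itgb2 fell by 0.94 in NK and changed by 1.03 in B cells (-1.97, SE 0.23, edgeR adjusted p = 0.000357), a difference called in every alternative. Of 21 cytotoxic genes tested against T cells 0 were higher and 6 lower in NK, of 28 activating receptors and adaptors 0 and 7, and of 16 late maturation genes 0 and 7.

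Many of the largest macro-metastatic changes were not called different from those of T and B cells. Gapdh changed by 2.84 in NK, 2.92 in T and 2.14 in B cells, Hilpda by 3.34, 3.53 and 2.57, and Mt1 by 5.38, 5.39 and 5.85. None of these interactions passed: those with T cells were -0.16 (SE 0.22), -0.30 (SE 0.24) and -0.01 (SE 0.60), which gives the precision with which a difference could be seen. Tnfrsf9 (2.58 in NK and 3.32 in T cells) and Cd226 (-1.62 and -2.29) were likewise not called. Of 24 hypoxia and glycolysis genes 0 differed from T cells, which at 1.21% of all genes called is near the background. Of 22 immediate-early and heat-shock genes 6 differed, all 6 higher in NK.

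**Figure D5:**
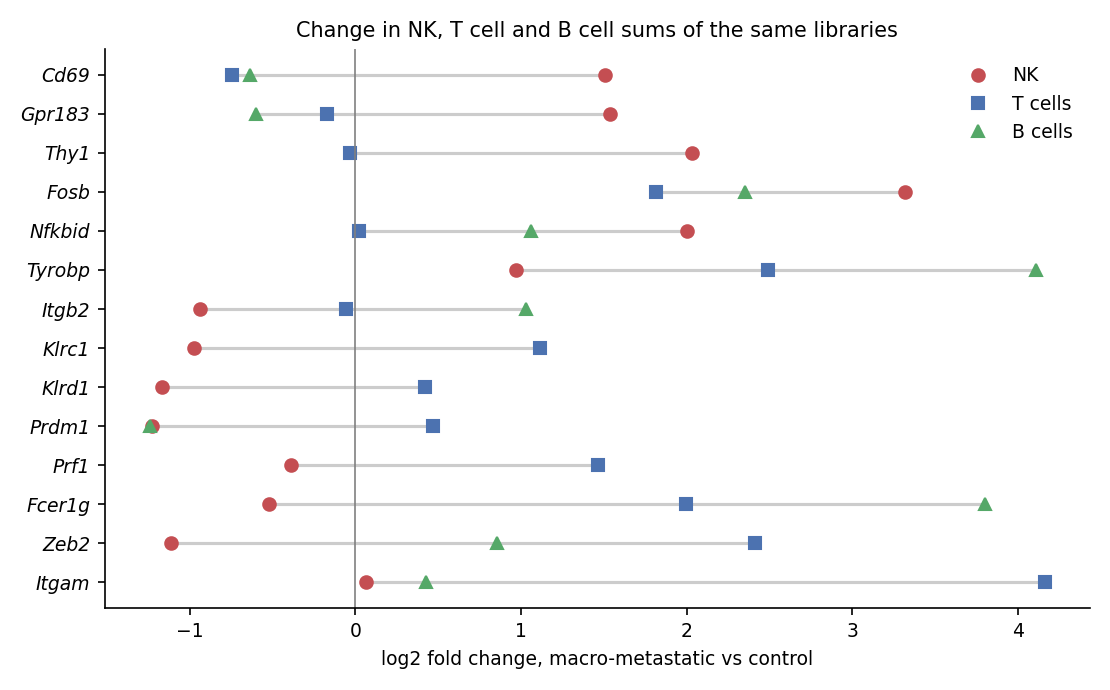
Log2 fold change, macro-metastatic against control, in NK (circles), T cell (squares) and B cell sums (triangles) of the same libraries; genes without a triangle were not tested in B cells. Cd69 lies at 1.51 in NK and below 0 in T and B cells, and Zeb2 at -1.11 in NK and 2.41 in T cells.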

How the data were processed

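Single-cell RNA libraries of 6 mouse liver samples, 2 per group, were read as the authors deposited them: UMI counts per gene and cell barcode, one matrix per library. The submitters' processing notes name CASAVA 1.8, UMI-tools and the genome mm10. Which aligner and which annotation were used is not given in the sources at hand. The deposited counts were not normalized, and every barcode in the files held at least 500 UMIs. The 6 libraries held between 41914149 and 90819751 UMIs over 31253 features, of which 48 symbols occurred more than once.

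NK barcodes were selected by the rule in the opening paragraph, and no clustering and no doublet caller was run; barcodes with transcripts of other lineages were handled by leaving them out as an alternative. Counts were summed per library over NK, T cell and B cell barcodes. They were tested with edgeR 4.0.16 in R 4.3.3: quasi-likelihood test, TMM scaling, filterByExpr, all 6 libraries in one fit with 3 residual degrees of freedom, Benjamini-Hochberg adjustment over all genes tested, threshold 0.05. The genes in the selection rule were not tested. Differences between cell types were tested as interactions with the library as a block. DESeq2 1.42.0 was an alternative. Shares were compared by an exact permutation test over libraries. Thinning drew 1000 UMIs per barcode and left out shallower barcodes. Other alternatives were no low-count filter, other size factors, only the groups compared, a replicate block and offsets for GC content. Stricter NK rules and each library left out were also run, and no looser rule was tried. Shares and sums were computed with Python 3.11.15, numpy 2.4.6, scipy 1.17.1 and pandas 2.3.3, and the fits were tested on simulated data.

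The members and the gene lists were chosen with earlier results of these data known. Named genes were the 8 called genes with the largest change in each direction among those whose log2 CPM averaged 5 or more, no overlap between groups and an NK level at least 0.5 times that of the other barcodes, up to 4 called genes per list by adjusted p, and the 2 most abundant members of each list of other cells. These were named after their values were seen: Cx3cr1, S1pr5, Cma1, Spn, Tbx21, Itgam, Klrg1, Cd27, Prf1, Gzmb, Nkg7, Nr4a1, Nr4a2, Nfkbia, Dusp2, Pkm, P4ha1, Gpr183, Ghr, Cxcl9 and the genes of the comparisons with T and B cells. Genes may be in more than 1 list.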

Additional observations from a re-analysis of the deposited data

Results flagged for a closer look

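The macro-metastatic change differed between NK cells and another lymphocyte of the same libraries, by the interaction term of edgeR, for these genes. The values are the NK log2 fold change minus that of the other cell type, and the genes were chosen after their values were seen.

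Against T cells the NK change was higher for Cd69 (2.07), Thy1 (1.97), Nfkbid (1.88), Gpr183 (1.59) and Fosb (1.48). It was lower for Itgam (-4.01), Zeb2 (-3.53), Cx3cr1 (-2.93), Fcer1g (-2.55), Klrc1 (-2.18), Prf1 (-1.94), Klrd1 (-1.74), Prdm1 (-1.67), Tyrobp (-1.58), Nkg7 (-1.01) and Itgb2 (-0.94). Of these 16 genes, 9 kept their call in every alternative. The calls of Cx3cr1, Gpr183, Nkg7 and Itgb2 were lost without control replicate 1 and without control replicate 2, as was that of Nfkbid. The call of Tyrobp was lost without control replicate 1 (-1.09, edgeR adjusted p = 0.130). The call of Prdm1 was lost without control replicate 2 (-1.44), and its value was -2.33 without macro-metastatic replicate 2. T cell sums held more neutrophil transcripts than NK sums (7193 to 20246 against 1294 to 1706 CPM in the macro-metastatic libraries), and their part in these differences was not tested.

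Against B cells the NK change was higher for Csf2rb (2.52), Gpr183 (2.11), Cd69 (2.06), Tgif1 (1.31), Birc3 (1.08) and Srgn (0.94). It was lower for Fcer1g (-4.25), Tyrobp (-3.15), Itgb2 (-1.97) and Zeb2 (-1.92). Of these 10 genes, Fcer1g, Tyrobp and Itgb2 kept their call in every alternative. Pooled over libraries, B cell barcodes held Fcer1g and Tyrobp at 83.3 and 88.4 CPM, against 792 and 605 in NK barcodes. Monocyte and macrophage markers in B cell sums were at 116 to 161 CPM in controls and 1070 to 1896 in the macro-metastatic libraries. Their part in these differences was not tested. The calls of Csf2rb, Tgif1, Birc3 and Srgn were lost without any 1 of the control and macro-metastatic libraries, and those of Cd69 and Zeb2 without control replicate 1.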

How the results depend on the processing

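Of the 117 named genes called in the macro-metastatic comparison with control, 49 kept their call in every alternative and none reversed; 31 genes of the comparison with the pre-metastatic group were called and 18 kept theirs, and of 18 called in the pre-metastatic comparison with control 0 did. The 3 alternatives that leave out barcodes with any other-lineage UMI, over 3 times the median UMIs or with 3 or more MHC class II UMIs were chosen after seeing the data.

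The macro-metastatic count of 845 was 473 with DESeq2, 349 in thinned barcodes and 419 without other-lineage transcripts, and ran from 436 to 1047 on leaving out a library. The pre-metastatic count of 52 was 22 with DESeq2, 33 with at least 3 NK genes, 34 with Eomes required, 3 without barcodes with 2 or more other-lineage genes, 3 without any other-lineage UMI, 12 in thinned barcodes and 18 without barcodes over 3 times the median, and ran from 10 to 121. The count of 597 between the tumour groups was 313 with DESeq2, 287 thinned and 345 without other-lineage transcripts, and ran from 304 to 618. Without the low-count filter the counts against T cells were 290 and 37 (macro-metastatic and pre-metastatic change) and against B cells 189 and 44. On leaving out a library they ran from 55 to 236 and 0 to 37 against T cells, and from 12 to 123 and 0 to 16 against B cells. The causes were not tested.

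The labels give the same replicate numbers in each group, but the numbers did not pair the libraries (correlations of same-numbered deviations 0.0796, -0.0158 and -0.0959). With a replicate block the counts were 846, 81 and 597 for the 3 NK comparisons, 116 and 0 against T cells, and 74 and 12 against B cells.

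The log2 ratio of the NK share, macro-metastatic to control, was -0.20 of lymphocytes and -0.0717 of NK and ILC1-like barcodes, and ran from -2.77 to -1.38 on leaving out a library. The pre-metastatic ratio was 0.13 of lymphocytes and ran from -0.45 to -0.04. The ratio between the tumour groups was -0.34 of lymphocytes and 0.0212 of NK and ILC1-like barcodes, and ran from -2.52 to -1.12.

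Genes that turned sign were, with 1 exception, not called. Cd27 was -0.32 thinned, -0.17 with GC offsets, -0.18 with GC offsets and the replicate block, and -0.0757 without other-lineage transcripts. Gzmb was 0.0197 with at least 3 NK genes, 0.0165 without barcodes with 2 or more other-lineage genes and 0.00314 without any such UMI, and ran from -0.23 to 0.0381 on leaving out a library. Itgam was -0.0814 with at least 3 NK genes, -0.0483 without Gzma in the rule, -0.0648 with Eomes required, -0.42 without 2 or more other-lineage genes, -0.44 without any, -0.0515 without barcodes over 3 times the median and -0.14 without MHC class II barcodes, and ran from -0.0937 to 0.21. Klrg1 was -0.0435 without the filter and ran from -0.18 to 0.17. Of the pre-metastatic changes, Lyz2, which was called, was -0.000747 without other-lineage transcripts, and Trf was -0.11 without barcodes with 2 or more other-lineage genes. Macro-metastatic replicate 1 had 48 NK barcodes.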
